A study of Mus musculus with 16 samples.

Results

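The cascade that carries the light response of ON bipolar cells was described here by 10 genes: Grm6, Trpm1, Nyx, Gpr179, Rgs7, Rgs11, Gnb5, Gnao1, Gng13 and Pcp2. The genes were chosen by symbol, and all 10 were found among the 25905 genes of the deposited table. RNA was sequenced from the retinas of 16 wild type, male C57BL/6 mice, 10-week old by the labels, of which 8 were in the spaceflight group and 8 were in the ground control group. The study's methods give this age for the mice that were flown, and eyes were taken after their return to Earth. The spaceflight retinas therefore came from mice older than 10 weeks. The sources used here give no difference in age between the groups. The spaceflight mice lived on the International Space Station, and the ground control mice lived on Earth in the same type of housing hardware. The labels give both groups as wild type and name no treatment other than the flight. Each value below is the authors' mean normalized count, a single number per gene pooled over all 16 libraries, so it has no SD and no group of its own. No column of counts could be tied to a mouse or a group by its name, so the levels of spaceflight and ground control were not compared here.

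ON bipolar cells receive glutamate from photoreceptors in the dark and depolarize when light stops its release. Glutamate binds the metabotropic receptor mGluR6, which acts through the G protein Go to close the cation channel TRPM1. When glutamate falls, a complex of RGS proteins speeds the shutdown of Go and the channel opens. Loss of the receptor, the channel, nyctalopin or GPR179 removes the b-wave of the electroretinogram and causes congenital stationary night blindness.

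In these retinas 9 of the 10 genes had a mean normalized count of at least 10, and Pcp2 was listed at 8.60. The 10 means summed to 12253 of 6995811 over all genes. Levels of different genes were compared after division by transcript length, as the mean normalized count per kilobase. On this scale the G protein subunit Gng13 was highest at 1107 per kilobase, Nyx was at 57.5 and Pcp2 was lowest at 17.4. This order turned for Pcp2 when the mean was divided instead by the number of placements, positions where a 75-base read, the read length of the study, would lie wholly in bases of 1 transcript model. Per 1000 placements Pcp2 was highest at 4301, a value that rests on 2 placements, followed by Gnb5 at 2641 and Gng13 at 1234, and Nyx was lowest at 58.3. For Pcp2, 203 placements touched at least 1 base of a single model. Whether reads that only touch such bases were counted is not given, so the rank of Pcp2 per placement is uncertain. The median over the 10 genes was 222 per kilobase, against a median of 68.4 per kilobase over 11175 reference genes, which are all genes with a mean of at least 10 and a known length. In bulk retina, fewer cells of a type and less RNA per cell cannot be told apart. The share of each gene's RNA that came from ON bipolar cells was not measured.

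**Figure D1:**
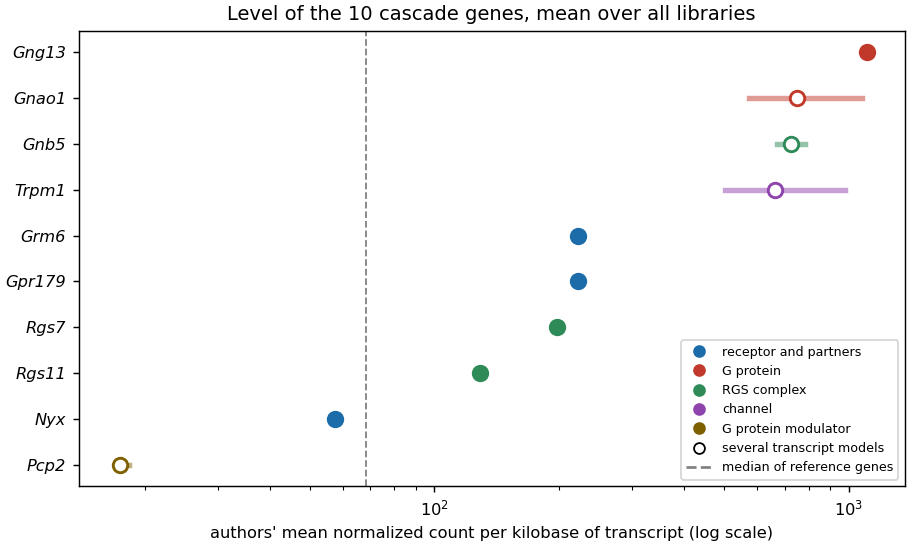
Mean normalized count per kilobase of transcript (x axis, log scale) for the 10 cascade genes (y axis), coloured by role. Points use the median transcript length and bars run from the longest to the shortest counted model. Gng13 stood highest at 1107 per kilobase, and Nyx (57.5) and Pcp2 (17.4) lay left of the dashed reference median of 68.4.

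The transcript models behind 3 of the genes are shown first, because the number of counted models and the bases they do not share moved with the listed levels. Reads were counted per RefSeq transcript, and 6 of the 10 genes had 1 model while Trpm1, Gnb5 and Gnao1 had 2 and Pcp2 had 3. The sequences below are coding bases from GENCODE M21 on GRCm38, written 5′ to 3′, with capitals for bases that lie in 1 model only by position. Pcp2 lies on the minus strand at chr8:3623369-3625547 and encodes a small protein with GoLoco motifs that binds the alpha subunit of Go. Its 3 models have lengths of 504, 470 and 495 bases and separate first exons of 76, 48 and 73 bases. The first 90 coding bases of each model are given because they show how little of the coding sequence tells the models apart.
Pcp2, 504-base model: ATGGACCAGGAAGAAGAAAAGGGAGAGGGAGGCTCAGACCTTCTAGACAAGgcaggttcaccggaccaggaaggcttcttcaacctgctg
Pcp2, 470-base model: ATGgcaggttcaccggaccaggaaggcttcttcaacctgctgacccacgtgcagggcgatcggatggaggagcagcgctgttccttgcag
Pcp2, 495-base model: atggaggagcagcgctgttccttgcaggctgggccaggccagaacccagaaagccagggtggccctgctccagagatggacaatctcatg
Of the coding bases, 51 of 408 belonged to the 504-base model alone, 3 of 360 to the 470-base model alone and 0 of 297 to the 495-base model alone. The start of the 495-base coding sequence lies inside the coding sequence of the 470-base model.

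Gnb5, which encodes the beta subunit that pairs with R7 RGS proteins, lies on the plus strand at chr9:75306288-75345923. Its models of 1803 and 2105 bases encode a long and a short form of the protein. The first 150 coding bases are given because the forms differ there.
Gnb5, 1803-base model: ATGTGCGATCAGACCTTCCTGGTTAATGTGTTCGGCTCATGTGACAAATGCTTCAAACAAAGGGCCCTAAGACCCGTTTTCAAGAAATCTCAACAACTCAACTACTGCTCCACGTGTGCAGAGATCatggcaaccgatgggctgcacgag
Gnb5, 2105-base model: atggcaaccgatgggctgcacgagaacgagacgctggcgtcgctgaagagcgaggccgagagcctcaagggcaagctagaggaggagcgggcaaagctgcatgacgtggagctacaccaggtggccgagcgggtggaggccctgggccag
The 1803-base model carried 126 coding bases of its own in a coding sequence of 1185 bases, and the 2105-base model carried 0 in 1059. The longer coding sequence runs into the start codon of the shorter one at the end of the capitals.

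Gnao1 encodes the alpha subunit of Go and lies on the plus strand at chr8:93810153-93969388. It is spliced into forms that differ in the last exons of the coding sequence. Coding bases 704 to 803 of both models are given because they cross the point where the forms part.
Gnao1, 5526-base model: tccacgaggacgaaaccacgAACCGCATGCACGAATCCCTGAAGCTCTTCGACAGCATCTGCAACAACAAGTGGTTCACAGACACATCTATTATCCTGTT
Gnao1, 2948-base model: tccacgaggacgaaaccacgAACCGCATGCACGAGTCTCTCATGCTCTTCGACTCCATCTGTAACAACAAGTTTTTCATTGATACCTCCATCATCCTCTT
Each form had 1062 coding bases, of which 339 lay in exons of that form alone. Several stretches of the capitals carry the same letters in both forms although they come from different exons.

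The receptor and its partners at the dendritic tip had levels from 57.5 to 223 per kilobase. Grm6, which encodes mGluR6 at chr11:50850369-50866208, had a mean normalized count of 964 over 4330 bases, or 223 per kilobase. This level was above 82.3% of the reference genes. Gpr179 at chr11:97332109-97352356 encodes an orphan receptor that anchors the RGS proteins beside mGluR6. Its mean normalized count was 2050 over a transcript of 9219 bases, or 222 per kilobase. The ratio of Grm6 to Gpr179 was 1.00 per kilobase. Nyx at chrX:13461090-13492820 encodes nyctalopin, a leucine-rich repeat protein needed to place TRPM1 at the dendritic tip. Nyx had a mean normalized count of 298 over 5183 bases, and its level of 57.5 per kilobase was above 45.0% of the reference genes. Grm6 was 3.87 times Nyx per kilobase.

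With the median transcript length, the G protein subunits Gng13 and Gnao1 had the highest levels per kilobase of the 10 genes. Gng13 at chr17:25717172-25719102 encodes the gamma subunit of the ON bipolar G protein. Its mean normalized count of 796 came from a transcript of only 719 bases, which gave 1107 per kilobase, above 97.7% of the reference genes. Gng13 was 19.2 times Nyx per kilobase. Gnao1 had a mean normalized count of 3179, and its level was 750 per kilobase with the median transcript length. With the longest and the shortest of its models the level was 575 and 1078 per kilobase. Gnao1 was 3.37 times Grm6 per kilobase and 2.08 times per placement. These ratios are of whole retina and do not give the ratio within ON bipolar cells. Gng13 was 63.7 times Pcp2 per kilobase, but per placement the direction turned and Pcp2, on 2 placements, was 3.49 times Gng13.

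Among the genes of the shutdown complex, Gnb5 had a mean normalized count of 1415 and a level of 724 per kilobase, above 96.0% of the reference genes. Rgs7 at chr1:175059076-175492862 and Rgs11 at chr17:26202527-26211324 encode the GTPase-accelerating subunits that act on Go in ON bipolar cells. Rgs7 had a mean normalized count of 418 and a level of 198 per kilobase. The mean of Rgs11 was 258, or 129 per kilobase, and Rgs7 was 1.54 times Rgs11. Their shared partner Gnb5 was 3.66 times Rgs7 per kilobase and 12.9 times per placement, since Gnb5 has only 536 placements. Gnb5 also pairs with the RGS protein of photoreceptors.

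The channel gene Trpm1 at chr7:64153835-64269772 had a mean normalized count of 2866 and a level of 663 per kilobase, above 95.4% of the reference genes. Its models span 2928 and 5711 bases, and the level was 979 per kilobase with the shortest and 502 with the longest. The 2928-base model has 14 exons and ends at chr7:64224836, against 27 exons and chr7:64269775 for the other. The mean is a single value for the gene, so neither figure is the level of 1 model. Trpm1 was 2.98 times Grm6 per kilobase, from 2.25 times with its longest to 4.40 times with its shortest model. The ranges of Gnao1, Gnb5 and Trpm1 between their longest and shortest models overlapped, so their order among themselves depended on the length used. Trpm1 is also a gene of melanocytes, and the pigment epithelium and melanocyte markers were present: 9 of 10 had a mean of at least 10, from Slc45a2 at 3.65 to Ttr at 540, with a sum of 1914. Their part in the Trpm1 level was not tested.

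The levels of the cascade genes were next read against the number of transcript models, since reads that lie in bases of several models can be lost or split when counting is done per transcript. The setting that decides this in the counting step, and how models were combined into a gene, are not given in the sources used here. Over all genes, the 22086 genes with 1 model had a median mean normalized count of 12.9, and 48.3% of them were under 10. The 3794 genes with 2 or more models had a median of 0.806, and 75.4% of them were under 10. Per kilobase the medians were 20.2 for genes with 1 model and 0.527 for genes with 2 or more. Among the cascade genes, the 6 with 1 model had means from 258 to 2050, the 3 with 2 models had means from 1415 to 3179, and Pcp2 with 3 models was at 8.60. Trpm1, Gnb5 and Gnao1 were therefore far above the median of genes with several models, and Pcp2 was nearer to it.

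**Figure D2:**
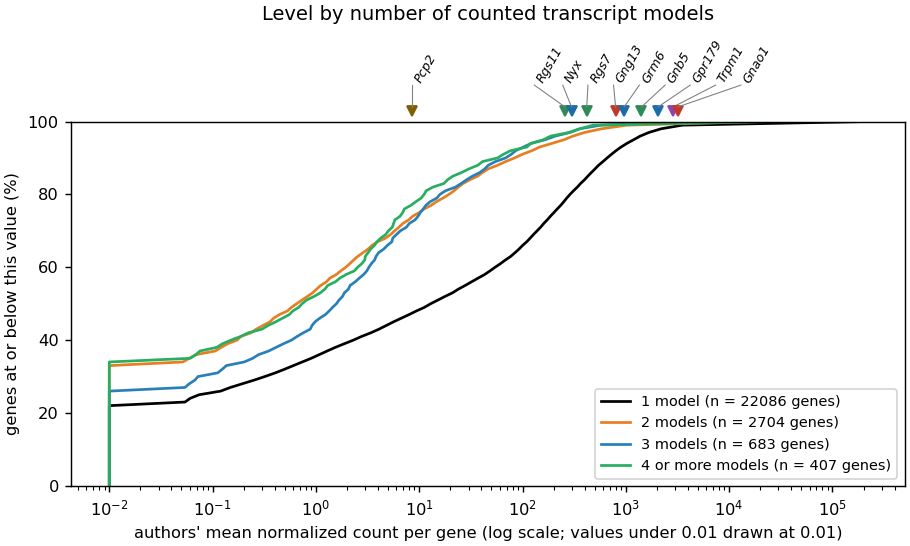
Share of genes (y axis, %) at or below each mean normalized count (x axis, log scale) for genes with 1, 2, 3 and 4 or more counted transcript models. Triangles above the frame mark the 10 cascade genes: Pcp2 stands apart at 8.60 and the other 9 lie between 258 and 3179.

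The bases that tell models apart differed widely among the 4 genes with several models. Gnao1 had 6760 placements of the kind defined above and 90.3% of its exon bases in 1 model only. Trpm1 had 4693 placements and 73.9% of its bases in 1 model only. Gnb5 had 536 placements and 32.5% of bases, and Pcp2 had 2 placements and 32.5% of bases. For Pcp2 both placements lay in the 504-base model, whose first exon has 76 bases, and 203 placements touched at least 1 base of a single model. The separate first exons of Pcp2 are too short to hold a whole read in the 470-base and 495-base models.

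Over the 2402 genes with several models and known, distinct exons, the median mean normalized count was 0 for the 277 genes with 0 placements. It was 0.409 for the 379 genes with 1 to 99 placements, 1.63 from 100 to under 500, 5.15 from 500 to under 2000 and 30.2 for 2000 or more. In the last of these classes 36.5% of 518 genes were under 10, against 95.8% in the class that holds Pcp2. Pcp2 was above 95.0% of the 379 genes of its class, and only 18 of them were higher. Its low level therefore stood in a class of mostly low genes, and within that class it was among the higher ones. Gnb5 at 1415 was in the class with a median of 5.15, and Trpm1 and Gnao1 were in the class with a median of 30.2. The median transcript length was 2527 to 2818 bases in the classes under 2000 placements and 3817 above. The part of the counting in the Pcp2 value was not tested.

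**Figure D3:**
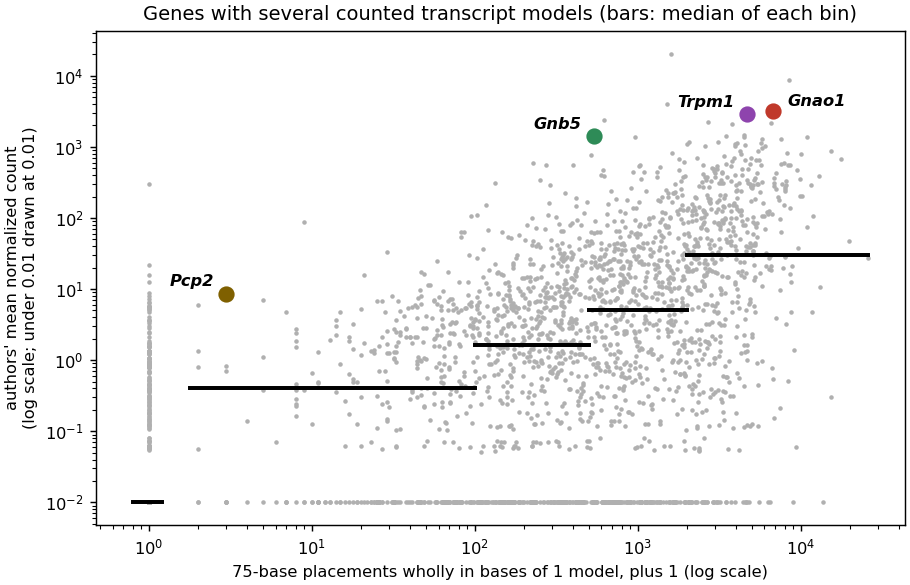
Mean normalized count (y axis, log scale) against the number of 75-base placements wholly in bases of 1 model, plus 1 (x axis, log scale), for 2402 genes with several models. Bars are the medians of the 5 classes, from 0 for genes with no placement (drawn at 0.01) to 30.2 for 2000 or more. Pcp2 lies at the left with 2 placements and a mean of 8.60, and Gnb5, Trpm1 and Gnao1 lie at the upper right.

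Exons of other genes overlapped the counted models of 7 of the 10 genes on the opposite strand, and 0 did on the same strand. The largest overlaps were those of Gng13, where 399 of 719 bases (55.5%) also lie in exons of Chtf18, and of Pcp2, where 264 of 625 bases (42.2%) lie in exons of Pet100. Chtf18, which encodes a subunit of a clamp loader, had a mean normalized count of 23.5. The libraries were stranded, but whether the counting used the strand is not given in the sources used here. For Gnb5 the overlap with an antisense transcript was 10.6% of bases, for Rgs11 that with protein-coding Arhgdig (mean normalized count 30.6) was 6.88%, and for Grm6, Gnao1 and Trpm1 overlaps with noncoding or unclassified transcripts were 6.84% or less. Gpr179, Nyx and Rgs7 had 0 overlapping exon bases.

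Each cascade gene was then placed among its protein family. Grm6 was the highest of the 7 metabotropic glutamate receptor genes compared, at 223 per kilobase. Next came Grm8 at 127 and Grm7 at 52.6, which encode the other receptors of the same pharmacological group together with Grm4 at 27.7. Grm6 was 1.76 times Grm8. Grm5 had a mean of 0.577, although it has 3517 placements in bases of 1 model. Trpm1 was the highest of the 8 melastatin channel genes and was 22.6 times Trpm3, the next highest at 29.4 per kilobase. With the shortest model of both genes it was 9.42 times Trpm3, and with the longest 41.0 times. Trpm3 has 9 counted models and Trpm7, listed at 0, has 2 models with 39 placements.

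The RGS genes of the cascade were exceeded by the photoreceptor member of their family. Rgs9, which ends the light response in rods and cones, was at 8602 per kilobase and was 43.5 times Rgs7. Rgs6 at 132 per kilobase lay between Rgs7 at 198 and Rgs11 at 129. Among the proteins that anchor R7 RGS complexes, Gpr179 at 222 was below the photoreceptor anchor Rgs9bp at 1574. It was 1.90 times its relative Gpr158, at 117, and above Rgs7bp at 97.5 per kilobase.

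Among the G protein genes, rod subunits with 1 model stood above those of the cascade. Gnat1, the rod transducin alpha subunit, was at 66356 per kilobase and was 88.4 times Gnao1 per kilobase and 146 times per placement. With the median length Gnao1 lay between Gnai2 at 978 and the cone transducin Gnat2 at 572. This place depended on the length used: with its shortest model Gnao1 at 1078 was above Gnai2, and per 1000 placements Gnao1 at 470 was below Gnat2 at 593. Of 12 gamma subunit genes only the rod subunit Gngt1 was above Gng13, at 5.61 times its level, and Gng3 came next below at 844 per kilobase. Among beta subunits, Gnb3 at 769 per kilobase, the partner of Gng13 in ON bipolar cells and also a cone gene, was the highest of 5 and Gnb5 at 724 came next with the median length. Gnb5 was instead above Gnb3 with its shortest model, at 785 per kilobase, and per 1000 placements, at 2641 against 801. The ratio of Gnb3 to Gng13 was 0.69 per kilobase. Gnb1, the rod beta subunit, had a mean of only 0.266 with 3 models and no placement count here, so the rank of Gnb3 among the 5 is uncertain. Among the gamma genes, Gng2, Gng7, Gng12 and Gngt2 also have several models, with means of 4.02 or less. The rank of Gng13 has the same limit.

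Nyx was the lowest of the 3 leucine-rich repeat genes with a known length. Lrit1 at 830 per kilobase was 14.4 times Nyx, and Lrit2 was at 521. Of the 6 genes that encode GoLoco proteins, Pcp2 lay below Gpsm2 at 697, Gpsm1 at 323 and Gpsm3 at 153 and above Rgs12 at 6.77 per kilobase. Per 1000 placements the order turned and Pcp2 at 4301, on 2 placements, was above Gpsm2 at 713.

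**Figure D4:**
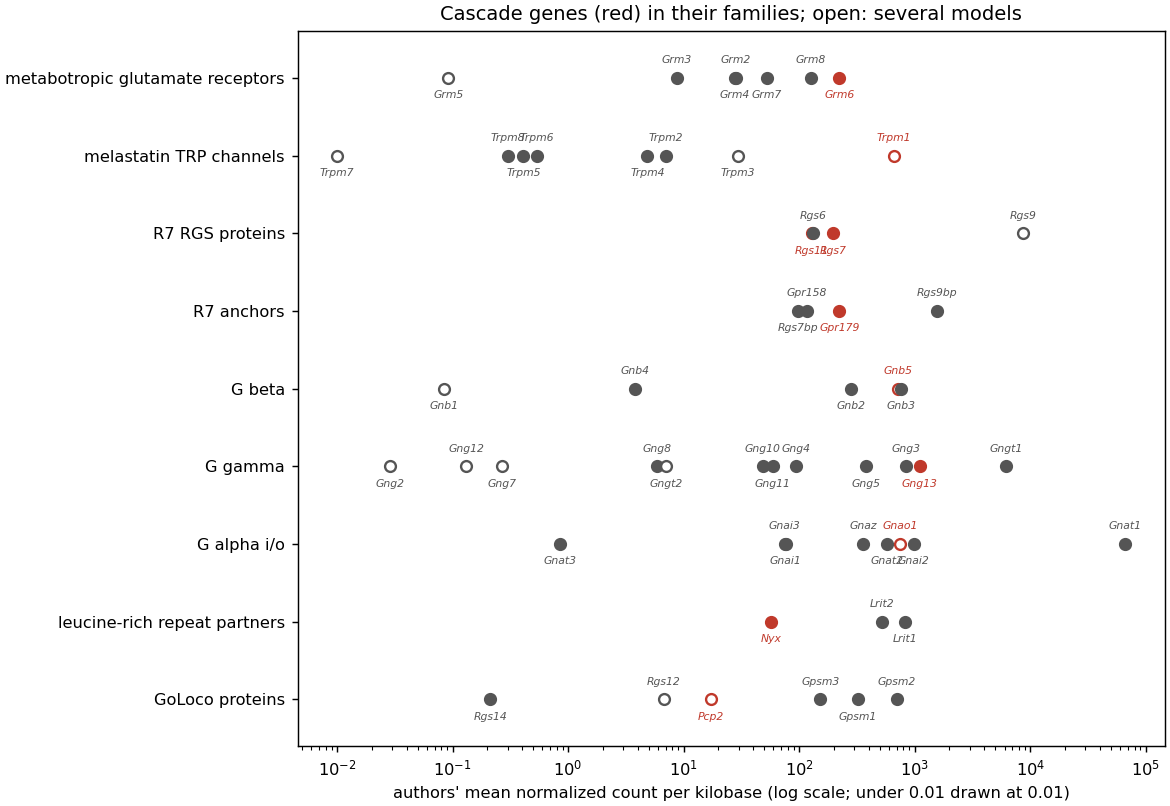
Mean normalized count per kilobase (x axis, log scale) for the cascade genes (red) and the other genes of their 9 protein families (rows), with open circles for genes with several counted models and values under 0.01 drawn at 0.01. Grm6 and Trpm1 are rightmost in their rows, and Rgs9, Gnat1 and Gngt1 lie right of Rgs7, Gnao1 and Gng13.

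Of 10 further genes of the ON bipolar synapse, all were listed and 9 had a known length. Lrit3, the leucine-rich repeat protein that acts with nyctalopin, had a mean normalized count of 362 and no length here. Elfn1, the photoreceptor adhesion protein that recruits mGluR6, was at 445 per kilobase, and Egflam, which encodes pikachurin of the synaptic cleft, was at 425. Prkca, the kinase that marks rod bipolar cells, was at 504. Ric8a, a chaperone of G alpha subunits listed under its older symbol Ric8, was at 56.4. Cacna1s, a voltage-gated calcium channel subunit, was at a mean of 0.561 with 2 models and 256 placements. Rgs9bp at 1574, Lrit1 at 830, Gnb3 at 769 and Rgs7bp at 97.5 per kilobase were also among the 9. The median of the 9 was above 92.3% of the reference genes, and the median of the 10 cascade genes was above 82.3%. Rgs9bp, Gnb3 and Elfn1 are described above as genes of photoreceptors or cones. These medians therefore do not compare genes of ON bipolar cells alone.

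Markers of ON bipolar cells were present in the same libraries, given here as mean normalized counts not divided by length. Of 11 rod and ON bipolar markers, 10 had a mean of at least 10, with a median of 820, the highest being Prkca at 4239. Strip2, which has 2 models and is listed as Fam40b, was at 0. OFF bipolar markers, which mark cells that do not use this cascade, were present in 7 of 8 cases with a median of 239, from Grik1 at 0.355 to Bhlhe22 at 315. All 8 rod markers passed 10, the lowest being Nrl at 88.9, and Opn1sw at 2800 was the highest of the cone markers, of which 7 of 8 passed 10 (Pde6c, 0.0699). Glul at 17455 led the Müller glia markers, with 5 of 6 passing (Rlbp1, 1.39). Gad1 at 2415 led the amacrine markers, with 6 of 6 (lowest Tfap2a, listed as Tcfap2a, 33.9). All 4 horizontal cell markers passed, from Lhx1 at 47.7 to Calb1 at 505, and 6 of 7 ganglion cell markers did, from Rbpms at 5.53 to Nefl at 2999. Of markers of other tissues, 4 of 5 for microglia (C1qb at 40.7, Aif1 at 4.08), 3 of 4 for lens (Cryaa at 898, Lim2 at 8.74), 3 of 4 for connective tissue (Col1a2 at 38.0, Dcn at 6.51) and 1 of 3 for blood (Hbb-b1 at 10.7, Hba-a1 at 0.213) were at 10 or more. Among the named markers under 10, Grik1, Pde6c, Rlbp1 and Dcn have 2 counted models each and Rbpms has 3. Aif1, Lim2 and Hba-a1 have 1 model. The part of the counting in these low values was not tested.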

How the data were processed

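Retinal RNA from 8 spaceflight and 8 ground control mice was sequenced as stranded, single-end reads of 75 bases. Per the labels and the study's methods, the authors used Trimmomatic for trimming, TopHat2 for mapping to an NCBI mouse build older than GRCm38, and HTSeq for counts per RefSeq transcript, and compared groups with DESeq2 1.22.2 in R 3.5.1. The value used is the signal column deposited by the authors, the mean over all libraries of their normalized counts, with one value a gene. The deposited tables also hold the authors' log2 fold changes, standard errors, statistics and p-values for spaceflight against ground control, which were not used. The 32 columns of counts per library carry laboratory codes that match no sample label, so they were not used in any step. Depth per library and replicate error were therefore not analysed here. The planned quasi-likelihood test and its alternatives were not run.

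Means were divided by the median length of a gene's models, from GENCODE M21 transcripts matched to RefSeq accessions (24385 of 31616 models, 77.1%). Gene coordinates are RefSeq positions on GRCm38, a newer build than the authors'. Placements are windows of 75 bases along each model. The match to RefSeq ignored accession versions. Lengths and placements may therefore differ from those of the models the authors counted. Overlaps used GENCODE exons. The functions for shared bases and placements were tested on simulated exons with known answers. Python 3.11.15, pandas 2.3.3 and numpy 2.4.6 were used.

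The text names all 10 cascade genes, 10 further genes of the synapse, and the highest, lowest and zero genes of the marker lists. These lists were chosen with earlier results of these data known. The protein families, and the genes named from them, the overlaps and the placement classes, were chosen after the members' values were seen. Some genes covered by this rule are not reported here.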

Additional observations from a re-analysis of the deposited data

How the results depend on the processing

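The number of cascade genes above the median of the reference genes was 8 with the median, the longest and the shortest transcript length, and 8 when ranked among genes with 1 model. It was 9 when ranked among all genes with a mean above 0, where the share of genes below Nyx moved from 45.0% to 61.4%, and 9 per placement in place of length, where Pcp2 moved from 19.3% to 99.6% on 2 placements. No rank was computed for Pcp2 on its 203 placements that touch at least 1 base of a single model. Per placement, the order turned for Pcp2 against Gng13 and Gpsm2 and for Gnb5 against Gnb3 and Gng13. It also turned for Gnao1 against Gnat2, Gnb5 and Trpm1. These pairs are examples and not a full list. Ranking among genes with 1 model and per placement were added after seeing the data. Over these settings Gng13 ranged from 97.5% to 98.4%, Rgs11 from 67.0% to 78.1%, and the other 6 genes shifted by at most 7.26 percentage points. No paired analysis was possible because the columns carry no number or label of a sample. For the same reason the edgeR test, DESeq2, the other size factors, the filter, the threshold of 0.05, the removal of the most abundant genes and leaving out each replicate were not run. Depth per library and the spread between mice are unknown here, so no difference between genes was tested, and a 0 may stand for a gene with few assignable reads.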
